A study of Mus musculus with 44 samples.

Results

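The genes described here make, sense and break down prostaglandins, the short-lived lipid signals that mammary fibroblasts exchange with epithelial, vascular and immune cells. Phospholipases free arachidonic acid from membranes, and the cyclooxygenases Ptgs1 and Ptgs2 turn it into prostaglandin H2, from which terminal synthases make the individual prostanoids. Each prostanoid acts close to its source through receptors coupled to G proteins, and Hpgd in cells that take it up ends the signal. Ptgs1 is usually expressed at a steady level, whereas Ptgs2 is known for rapid induction by growth factors and inflammatory signals, and both are the targets of anti-inflammatory drugs.

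Members were the lines of the gene counts table named Ptgs1, Ptgs2, Ptges, Ptgis, Ptgds, Ptger2, Ptger3, Ptger4, Ptgfr or Hpgd. All 10 names were found, each once, among 55486 genes. Read counts per gene came from 44 mRNA libraries of sorted fibroblasts, 12 from controls, 16 from WB1P and 16 from WB1P-Myc recipients, 13 mice in all. Single libraries held 5790599 to 15240328 counts with a median of 12818093. Counts were added up per mouse and CD26 class, and levels are given as CPM, counts scaled to the normalized size of the library. The sums held 5790599 to 29498005 counts with a median of 25193924.

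All recipients were female EN1-Cre;mTmG mice, in which Cre from the Engrailed1 locus turns membrane Tomato into GFP and so marks cells of the En1 lineage. The tumor donors and the mTmG line were on an FVB/n background, to which the EN1-Cre line was crossed for a few generations, so the recipients may not have been fully FVB/n. Control recipients (3 labels) carried mammary tissue from donors without WapCre, and their cells are called normal fibroblasts (NFs). The control donors also differed from the tumor donors in their other alleles, so donor genotype and tumor cannot be told apart. WB1P recipients (5 mice) carried tissue from WapCre;Brca1F/F;Trp53F/F donors, in which the milk protein promoter Wap drives Cre in mammary epithelium. WB1P-Myc recipients (5 mice) carried tissue from donors that had Col1a1invCAG-Myc-IRES-Luc in addition. Cells from tumor-bearing recipients are called cancer-associated fibroblasts (CAFs).

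Donor tissue was placed beside a gland that kept its own epithelium and stroma. Each control label carries a pair of numbers, 82/83, 49/52 and 44/46, which were counted as 1 mouse each and could be pooled animals. WB1P mouse 10 gave no CD26+ library. A single library made up each CD26− sum of WB1P mouse 10 and WB1P-Myc mice 21 and 95. The same held for the CD26+ sums of WB1P mouse 12 and WB1P-Myc mice 67 and 95. In mouse 95 the CD26+ library had GFP and the CD26− one lacked it, so CD26 and En1 lineage cannot be told apart there. The labels of 2 WB1P-Myc mice (23 and 69) carry the mark 8x8. The study used tumors of that size in mm as an advanced stage before the end stage. It describes the tumors of this experiment as end stage, with fewer WB1P-Myc mice than the labels give. This reading of the mark is therefore uncertain. If it holds, tumor stage and Myc cannot be told apart in full between WB1P and WB1P-Myc. Age at harvest is not given in the labels. The sort kept cells negative for EpCAM, CD49f, CD31 and CD45 after warm collagenase digestion, then split them by GFP and by CD26, the surface peptidase encoded by Dpp4.

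Dpp4 itself followed the sort. It stood at 414 ± 125 CPM (SD, n = 9) in the CD26+ class of CAFs against 6.41 ± 4.26 CPM (n = 10) in the CD26− class, and at 527 ± 270.3 CPM and 4.87 ± 2.75 CPM (n = 3 each) in NFs. The 6 fibroblast markers together held 26975 to 53277 CPM over CD26− CAFs and 31500.3 to 56468 CPM over the CD26+ class, and Col1a1, a chain of type I collagen, was the most abundant in each group. Of these 6 genes, 3 were called higher (Dcn, Pdgfra and Lum) and 1 lower (Pdgfrb) in CD26+ than in CD26− CAFs. Against NFs 1 was higher and 3 lower in CD26− cells, and 2 were higher and 2 lower in CD26+ cells.

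Pericytes are the mural cells of small vessels, and no marker of them was among the 4 used to remove other cells. The summed level of 8 pericyte markers was 1883 to 9365 CPM over the 10 sums of CD26− CAFs and 156 to 394 CPM over the 9 sums of CD26+ CAFs. In NFs it was 207 to 388 CPM in CD26− cells and 168 to 190.3 CPM in CD26+ cells. All 8 were lower in CD26+ than in CD26− CAFs, and in CD26− cells all 8 were higher in tumors than in controls. The CD26 difference itself differed between CAFs and NFs for 5 of the 8 (Rgs5, Mcam, Notch3, Cspg4 and Des), each lower. In CD26+ cells 1 (Kcnj8) was higher and 1 (Notch3) lower in CAFs than in NFs. Rgs5, a regulator of G protein signalling and the most abundant of them in CD26− CAFs, stood at 1549.7 ± 1082 CPM there and 4.50 ± 3.02 CPM in CD26+ CAFs, while Higd1b was under 1 CPM in CD26+ CAFs and in both NF classes. The part of these genes in the member results was not tested, and in bulk samples fewer cells of a type and less RNA per cell cannot be told apart.

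CD26+ and CD26− CAFs were compared first, over 9 CD26+ and 10 CD26− sums, to ask how the prostaglandin genes were divided between both CAF classes. Ptgs1, Ptgs2, Ptgis and Hpgd were higher in CD26+ CAFs, and Ptger2 and Ptger4 were lower. Of the 9 members that passed the filter on low counts, 4 were thus higher and 2 lower, beside 19.1% and 19.9% of the 16601 genes tested. Called means an adjusted p under 0.05 at any fold in edgeR's quasi-likelihood test, adjusted by Benjamini-Hochberg across the genes tested. The median log2 fold change of the 9 was 0.96, beside 0.0081 over all genes tested.

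**Figure D1:**
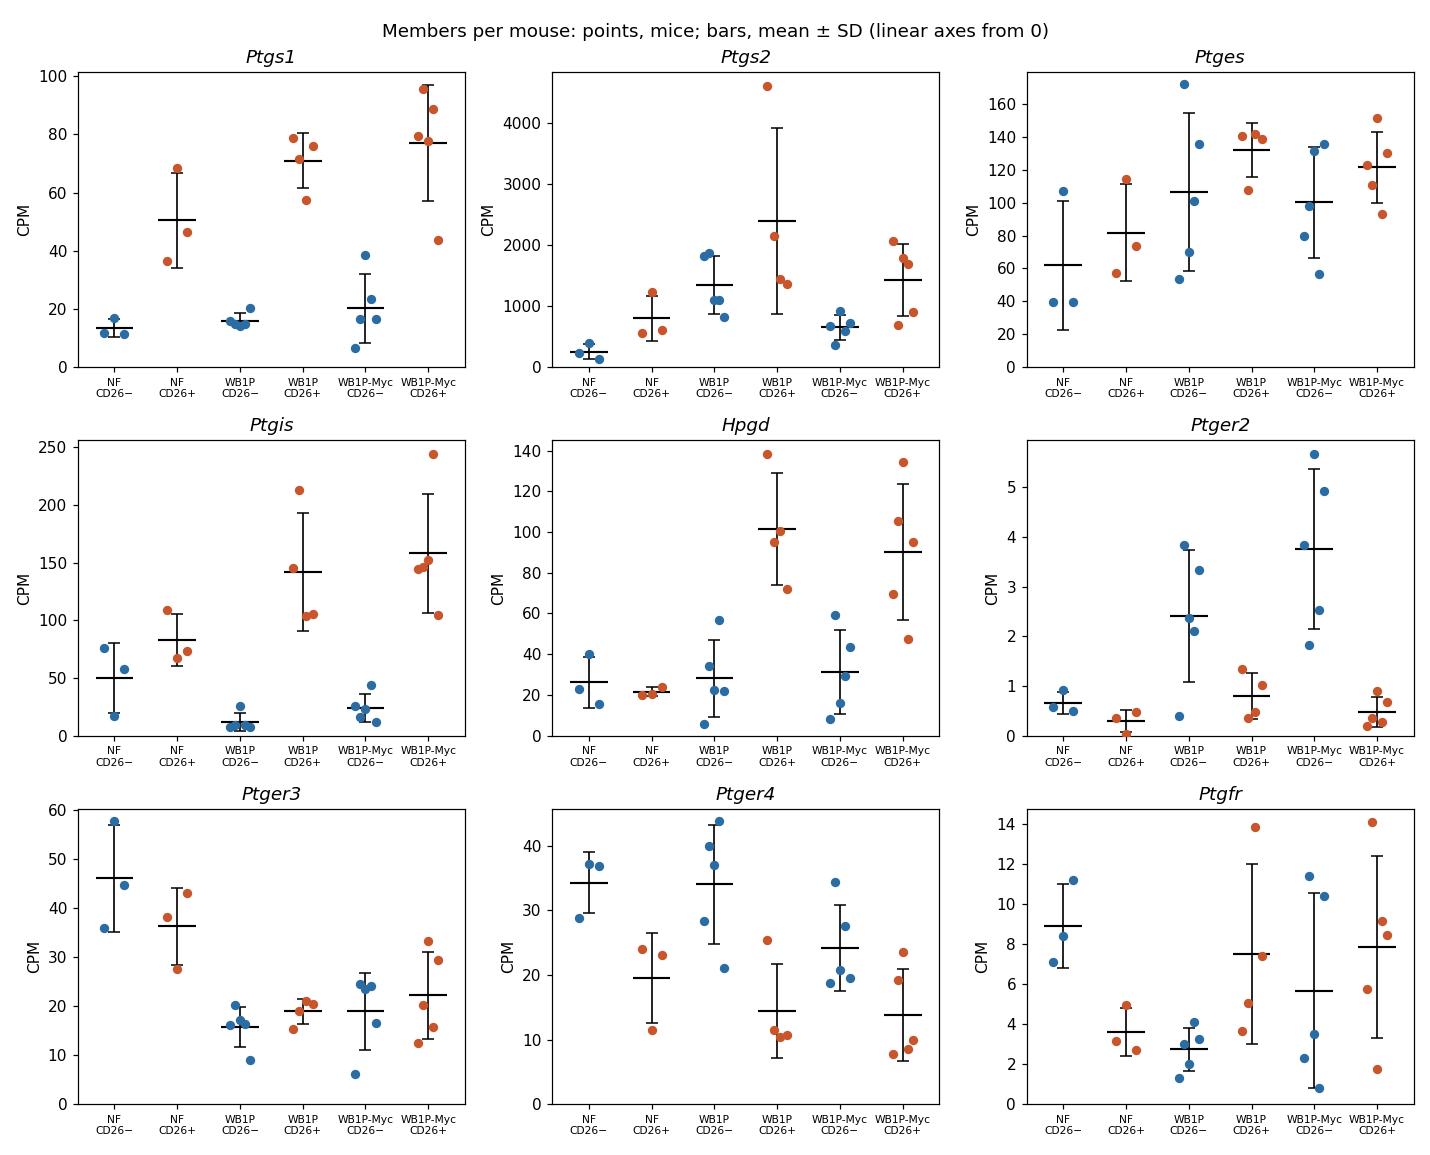
CPM of the 9 members that passed the filter on low counts (vertical axes, linear, from 0) in each mouse, by tissue and CD26 class. Points are mice, blue for CD26− and orange for CD26+, and black bars give the mean ± SD. For Ptgs1 and Ptgis all 9 sums of CD26+ CAFs lie above all 10 sums of CD26− CAFs.

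Ptgs1, the steady cyclooxygenase, followed CD26 in tumors and in normal glands alike. Its values were 11.4, 11.7 and 16.9 CPM in CD26− NFs and 36.6, 46.3 and 68.5 CPM in CD26+ NFs. In WB1P they were 14.1, 14.7, 14.9, 15.7 and 20.4 CPM in CD26− cells and 57.4, 71.7, 76.1 and 78.8 CPM in CD26+ cells. In WB1P-Myc they were 6.44, 16.4, 16.6, 23.2 and 38.5 CPM in CD26− cells and 43.8, 77.8, 79.3, 88.7 and 95.5 CPM in CD26+ cells. The lowest CD26+ CAF value, from WB1P-Myc mouse 69, lay above the highest CD26− value, from WB1P-Myc mouse 95, and the NF classes did not overlap either. The mean was 74.3 ± 15.6 against 18.1 ± 8.37 CPM in CAFs (log2 fold change 2.04 ± 0.22 (SE), adjusted p = 1.89e-07), higher in 9 of 9 mice with both classes. In NFs it was 50.5 ± 16.3 against 13.3 ± 3.11 CPM (log2 fold change 1.92 ± 0.39 (SE), adjusted p = 0.00509), higher in 3 of 3 mice.

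Ptgs1 was the 1 member called between the NF classes, beside 2.67% of all genes called higher and 1.49% called lower. Cell type markers were called between the NF classes too: 2 of 8 pericyte markers (Des and Rgs5), 1 of 6 mast cell markers (Mcpt4) and 2 of 4 adipocyte markers (Cidec and Lep) were lower in CD26+ NFs, and 1 of 6 endothelial markers (Tek) was higher. edgeR and DESeq2 called 0 of 6 fibroblast markers, with 1 at an unadjusted p under 0.05 in edgeR, and 0 of 7 macrophage and leukocyte and 0 of 6 epithelial markers, with 0 at an unadjusted p under 0.05. Of mesothelial markers edgeR called 0 of 2 tested, with 0 at an unadjusted p under 0.05, and DESeq2 called 0 of 4. The part of these genes in the Ptgs1 difference was not tested. Without control 49/52 the log2 fold change of Ptgs1 was 1.85, adjusted p = 0.0567, and without control 44/46 it was 1.87, adjusted p = 0.0856. The CD26 difference of Ptgs1 in CAFs minus that in NFs was 0.12 ± 0.44 (SE, adjusted p = 0.955) on the log2 scale. Between CAFs and NFs of the same class Ptgs1 was not called, with log2 fold changes of 0.43 ± 0.32 (SE, adjusted p = 0.285) in CD26− cells and 0.55 ± 0.32 (SE, adjusted p = 0.173) in CD26+ cells. In CD26+ cells of the En1 lineage alone Ptgs1 was called between CAFs and NFs (0.63, adjusted p = 0.0394), with adjusted p over the 20 alternatives from 0.0394 to 0.484.

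Ptgs2, the inducible cyclooxygenase, had the highest level of the members in each group, also per length of transcript. Single mice gave 138, 229 and 393 CPM in CD26− NFs and 552, 612 and 1224 CPM in CD26+ NFs. WB1P mice gave 824, 1094, 1101, 1824 and 1868 CPM in CD26− cells and 1356, 1450.5, 2143 and 4616 CPM in CD26+ cells. WB1P-Myc mice gave 364, 585, 674, 727 and 921 CPM in CD26− cells and 697, 896, 1690.0, 1786 and 2072 CPM in CD26+ cells. The CD26− NFs had the lowest mean and did not overlap the CD26+ NFs, whereas the CAF classes overlapped widely. WB1P mouse 93 was the highest in both classes of that model.

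Within mice the direction was uniform, with Ptgs2 higher in the CD26+ cells of 9 of 9 tumor-bearing mice and 3 of 3 controls. In CAFs the means were 1856 ± 1143 against 998 ± 499.5 CPM (log2 fold change 0.98 ± 0.28 (SE), adjusted p = 0.00779). In NFs they were 796 ± 372 against 254 ± 129 CPM, and Ptgs2 was not called (log2 fold change 1.65 ± 0.51 (SE), adjusted p = 0.0710). With mouse as a block, which pairs both classes of a mouse, the NF difference was called (1.68, adjusted p = 0.000957), as it was with DESeq2's Wald test (1.63, adjusted p = 0.0226) and without WB1P mouse 93 (1.64, adjusted p = 0.0447). The CD26 difference in CAFs minus that in NFs was -0.67 ± 0.57 (SE, adjusted p = 0.702).

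Ptgs2 was also higher in CAFs than in NFs of the same class. In CD26− cells the log2 fold change was 1.89 ± 0.45 (SE, adjusted p = 0.00217) and in CD26+ cells 1.21 ± 0.44 (SE, adjusted p = 0.0296). The second call was lost when the 2 groups were fitted alone (1.22, adjusted p = 0.0507). It was lost too without control 82/83 (1.00, adjusted p = 0.142), control 44/46 (1.06, adjusted p = 0.122), WB1P mouse 93 (0.92, adjusted p = 0.0618) or WB1P-Myc mouse 23 (1.16, adjusted p = 0.0506). Over the 20 alternatives its adjusted p ranged from 0.0136 to 0.142.

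Both cyclooxygenases can be set side by side per length, dividing CPM by the kilobases of the gene's joined exons. In CD26+ CAFs the level per kilobase was 405 ± 249.6 for Ptgs2 and 19.1 ± 4.01 for Ptgs1 (mean ± SD, n = 9). In CD26− CAFs it was 218 ± 109 and 4.66 ± 2.16 (n = 10). The ratio of Ptgs2 to Ptgs1 per length within a sum had a median of 65.8 in CD26− and 23.4 in CD26+ WB1P CAFs. In WB1P-Myc these medians were 21.4 and 17.4, and in NFs 16.7 and 12.8. Ptgs2 transcripts thus outnumbered those of Ptgs1 in every sum, the lowest ratio being 6.19. The ratios were not tested.

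Ptgs2 is itself a gene of the rapid early response, and warm digestion is known to induce such genes, so 16 immediate early and stress genes are given beside it. Their summed level was 12276 ± 2849 CPM over CD26− CAFs and 13680.3 ± 2218 CPM in CD26+ CAFs. It was 18229 ± 7453 CPM in CD26− NFs and 15663 ± 4230.3 CPM in CD26+ NFs. All 16 were expressed in each group, with Egr1, a zinc finger transcription factor, the most abundant in NFs.

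In CD26+ against CD26− CAFs 4 of these 16 were called higher (Ier3, Atf3, Zfp36 and Dusp1) and 3 lower (Hspa1b, Hspa1a and Egr2), beside 19.1% and 19.9% of all genes. Between NF classes Nr4a2, a nuclear receptor, was the 1 called and was lower in CD26+ cells (log2 fold change -1.51 ± 0.42 (SE), adjusted p = 0.0408). That call was lost in 6 of 21 alternatives: without control 49/52 (-1.08, adjusted p = 0.513) or 44/46 (-1.52, adjusted p = 0.232), WB1P mouse 14 (-1.52, adjusted p = 0.0595) or WB1P-Myc mouse 69 (-1.52, adjusted p = 0.0518), without both mice marked 8x8 (-1.52, adjusted p = 0.0576), and with the groups compared fitted alone (-1.53, adjusted p = 0.0987). Between CAFs and NFs, where Ptgs2 was higher in CAFs, 7 of the 16 were called lower and 1 higher in CD26− cells, and 3 lower and 1 higher in CD26+ cells. Of all genes 21% were lower and 20.4% higher in CD26− cells, and 21.1% and 20.1% in CD26+ cells. Egr2, a relative of Egr1, had -1.30 ± 0.32 (SE, adjusted p = 0.00286) and -1.52 ± 0.33 (SE, adjusted p = 0.00106) on the log2 scale in these comparisons. Ier3, a stress gene linked to cell survival, was the 1 called higher, with 1.01 ± 0.24 (SE, adjusted p = 0.00219) and 2.49 ± 0.27 (SE, adjusted p = 9.45e-07). The part of the digestion in the Ptgs2 level was not tested.

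Ptges, the inducible prostaglandin E synthase that works downstream of Ptgs2, was present in all 6 groups. Its values ran from 39.4 to 172 CPM over the 25 sums, and the ranges of groups next to each other in the order of means overlapped throughout. Ptges was not called in any of the 4 main comparisons, with 0.30 ± 0.23 (SE, adjusted p = 0.320) between CAF classes on the log2 scale. Without control 49/52, the control with the highest Ptges level in both classes, the log2 fold changes of CAFs over NFs were 1.41, adjusted p = 0.00571 in CD26− cells and 0.96, adjusted p = 0.0422 in CD26+ cells. Ptges was also called without WB1P mouse 10 in CD26− cells (0.82, adjusted p = 0.0471) and with the 2 CD26+ groups fitted alone (0.64, adjusted p = 0.0275).

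Ptgis, which makes prostacyclin, a dilator of vessels and inhibitor of platelets, showed the largest CD26 difference of the members in CAFs. Its levels were 16.5, 57.3 and 76.2 CPM in CD26− NFs and 67.5, 72.9 and 108 CPM in CD26+ NFs. The WB1P levels were 7.02, 7.83, 8.86, 9.56 and 25.6 CPM in CD26− cells and 104, 106, 145 and 213 CPM in CD26+ cells. The WB1P-Myc levels were 11.6, 16.4, 22.7, 25.4 and 43.4 CPM in CD26− cells and 104, 144, 146, 152 and 244 CPM in CD26+ cells. CD26− CAFs were low in each mouse, the highest being WB1P-Myc mouse 23, and CD26+ CAFs were high in each mouse. In NFs the classes overlapped, and CD26− cells of control 82/83 exceeded CD26+ cells of the other 2 controls.

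In CAFs the means were 151 ± 48.7 against 17.8 ± 11.6 CPM (log2 fold change 3.15 ± 0.31 (SE), adjusted p = 5.07e-08), higher in CD26+ cells of 9 of 9 mice. In NFs they were 83.0 ± 22.3 against 50.04 ± 30.5 CPM (log2 fold change 0.73 ± 0.52 (SE), adjusted p = 0.640), higher in 3 of 3 mice, and called with mouse as a block (0.94, adjusted p = 0.0434). The difference between these differences was 2.42 ± 0.60 (SE, adjusted p = 0.0352), which made Ptgis the 1 member of 9 called in that test, beside 0.723% of all genes called higher and 1.39% lower. This last call was lost in 8 of 21 alternatives, with adjusted p from 0.00160 to 0.257. It was lost without control 82/83 (2.21, adjusted p = 0.181) or 44/46 (2.23, adjusted p = 0.257), without WB1P mouse 93 (2.37, adjusted p = 0.0522) or 14 (2.44, adjusted p = 0.0523), and outside the En1 lineage (1.99, adjusted p = 0.134). It was also lost without WB1P-Myc mouse 21 (2.45, adjusted p = 0.0564), 67 (2.37, adjusted p = 0.0521) or 95 (2.41, adjusted p = 0.0561). DESeq2 called it as well.

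Against NFs of the same class, Ptgis was lower in CD26− CAFs (log2 fold change -1.57 ± 0.38 (SE), adjusted p = 0.00254) and was not called in CD26+ CAFs (log2 fold change 0.85 ± 0.44 (SE), adjusted p = 0.127). Without control 82/83 the first call was lost (-1.13, adjusted p = 0.0531). With the 2 CD26+ groups fitted alone, the second comparison was called (0.86, adjusted p = 0.0320). Per kilobase Ptgis stood at 58.8 ± 19.0 in CD26+ CAFs, beside 32.1 ± 4.85 for Ptges, whereas in CD26− CAFs it stood at 6.95 ± 4.51 beside 26.3 ± 10.03. The order of both synthases by mean thus differed between the CAF classes.

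Ptgds, the lipocalin-type synthase of prostaglandin D2, was at the floor. It held 0 to 4 counts in the 25 sums, 18 counts in all, and 0 counts in 14 of them. A count of 0 allows up to 3 counts, which is 0.0994 to 0.543 CPM over the 14 sums with 0 counts, counting error only. Ptgds did not pass the filter on low counts and was not tested, and no fold is given.

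Hpgd, the dehydrogenase that takes the first step in inactivating prostaglandins, had its highest means of the 6 groups in the CD26+ CAFs of both models. The mice gave 15.6, 22.9 and 40.1 CPM in CD26− NFs and 19.96, 20.6 and 24.1 CPM in CD26+ NFs. In WB1P the mice gave 5.50, 22.0, 22.5, 34.0 and 56.9 CPM in CD26− cells and 72.2, 95.0, 100.3 and 138 CPM in CD26+ cells. In WB1P-Myc the mice gave 7.99, 15.95, 29.4, 43.7 and 59.0 CPM in CD26− cells and 47.2, 69.7, 95.1, 105 and 134 CPM in CD26+ cells. CD26+ CAFs did not overlap CD26+ NFs, while the other 4 groups overlapped one another. WB1P-Myc mouse 23 was the lowest of the CD26+ CAFs and overlapped the upper CD26− values.

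Between CAF classes the means were 95.3 ± 29.6 against 29.7 ± 18.8 CPM (log2 fold change 1.68 ± 0.35 (SE), adjusted p = 0.000485), higher in 9 of 9 mice. CD26+ CAFs exceeded CD26+ NFs (95.3 ± 29.6 against 21.5 ± 2.19 CPM, log2 fold change 2.15 ± 0.57 (SE), adjusted p = 0.00467). In CD26− cells Hpgd was not called between CAFs and NFs (log2 fold change 0.19 ± 0.49 (SE), adjusted p = 0.784), nor was it between NF classes (log2 fold change -0.28 ± 0.61 (SE), adjusted p = 0.943). The CD26 difference in CAFs minus that in NFs was 1.96 ± 0.70 (SE, adjusted p = 0.177) and missed the threshold, so the pattern is not shown to differ between tumor and normal gland. Gm45540, an annotated gene on the same strand, overlaps Hpgd, and its reads could be counted with either.

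Among the receptors, Ptger2 and Ptger4 both couple to Gs and raise cyclic AMP on binding prostaglandin E2. Ptger2 was low everywhere, with 1 to 108 counts per sum. Its levels stood at 0.497, 0.58 and 0.913 CPM in CD26− NFs and 0.0378, 0.357 and 0.483 CPM in CD26+ NFs. WB1P levels stood at 0.388, 2.10, 2.37, 3.33 and 3.84 CPM in CD26− cells and 0.362, 0.474, 1.01 and 1.34 CPM in CD26+ cells. WB1P-Myc levels stood at 1.81, 2.53, 3.85, 4.93 and 5.67 CPM in CD26− cells and 0.187, 0.276, 0.354, 0.682 and 0.907 CPM in CD26+ cells. CD26− CAFs were the highest group, apart from WB1P mouse 10, and CD26+ cells were lower in 9 of 9 mice with both classes.

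The Ptger2 means in CAFs were 0.622 ± 0.392 against 3.08 ± 1.56 CPM (log2 fold change -2.25 ± 0.41 (SE), adjusted p = 0.000136). CD26− CAFs also exceeded CD26− NFs (3.08 ± 1.56 against 0.663 ± 0.22 CPM, log2 fold change 2.18 ± 0.62 (SE), adjusted p = 0.00746). Over NF classes the change was -1.15 ± 0.73 (SE, adjusted p = 0.567), and the CD26 difference in CAFs minus that in NFs was -1.10 ± 0.85 (SE, adjusted p = 0.664). Ptger2 and the pericyte markers both had their highest means in CD26− CAFs. Ordered from the lowest to the highest Ptger2 level, the 10 sums of CD26− CAFs had pericyte marker sums of 5421, 3194, 1883, 2497, 4342, 2716, 2089, 9365, 2426 and 4342 CPM. The mouse with the lowest Ptger2, WB1P mouse 10, gave 1 library of this class. The part of pericyte markers in the Ptger2 level was not tested.

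Ptger4 was lower in CD26+ than in CD26− CAFs. Controls gave 28.8, 36.9 and 37.2 CPM in CD26− NFs and 11.4, 23.1 and 24.1 CPM in CD26+ NFs. The WB1P values were 21.1, 28.4, 37.1, 39.9 and 43.9 CPM in CD26− cells and 10.4, 10.8, 11.4 and 25.4 CPM in CD26+ cells. The WB1P-Myc values were 18.8, 19.5, 20.8, 27.6 and 34.4 CPM in CD26− cells and 7.72, 8.61, 10.00, 19.2 and 23.6 CPM in CD26+ cells. It was higher in CD26+ cells in 1 of 9 mice, WB1P-Myc mouse 95, and the ranges of the CAF classes overlapped. The means were 14.1 ± 6.74 against 29.2 ± 9.20 CPM (log2 fold change -1.02 ± 0.24 (SE), adjusted p = 0.00141). In NFs, whose classes did not overlap, the change was not called (log2 fold change -0.81 ± 0.41 (SE), adjusted p = 0.384). Neither CAF class was called against its NF class, with -0.25 ± 0.32 (SE, adjusted p = 0.546) in CD26− cells and -0.47 ± 0.33 (SE, adjusted p = 0.261) in CD26+ cells. Ptger4 overlaps Ttc33 on the opposite strand, and the libraries were stranded, but the strand setting of the counting is not given in the sources used here.

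Ptger3, the prostaglandin E2 receptor that couples mainly to Gi and lowers cyclic AMP, set tumor against normal gland and not CD26 class. The controls held 35.9, 44.7 and 57.7 CPM in CD26− NFs and 27.6, 38.2 and 43.0 CPM in CD26+ NFs. The WB1P sums held 9.09, 16.04, 16.4, 17.3 and 20.2 CPM in CD26− cells and 15.4, 19.0, 20.4 and 21.1 CPM in CD26+ cells. The WB1P-Myc sums held 6.14, 16.5, 23.6, 24.0 and 24.5 CPM in CD26− cells and 12.4, 15.7, 20.3, 29.3 and 33.3 CPM in CD26+ cells. All 10 CD26− CAF sums lay below all 3 CD26− NF sums. In CD26+ cells WB1P-Myc mice 95 and 69 reached into the NF range.

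Ptger3 was lower in CAFs in both classes, with means of 17.4 ± 6.14 against 46.1 ± 10.9 CPM in CD26− cells (log2 fold change -1.41 ± 0.29 (SE), adjusted p = 0.000548) and 20.8 ± 6.69 against 36.3 ± 7.92 CPM in CD26+ cells (log2 fold change -0.82 ± 0.30 (SE), adjusted p = 0.0341). The CD26+ call was lost in 6 of 20 alternatives, with adjusted p from 0.0121 to 0.185: without control 82/83 (-0.79, adjusted p = 0.0962) or 44/46 (-0.66, adjusted p = 0.185), without WB1P mouse 12 (-0.83, adjusted p = 0.0510) or WB1P-Myc mouse 23 (-0.79, adjusted p = 0.05001), without both mice marked 8x8 (-0.83, adjusted p = 0.0553), and outside the En1 lineage (-0.86, adjusted p = 0.0671). Between CAF classes Ptger3 was not called (log2 fold change 0.25 ± 0.22 (SE), adjusted p = 0.401).

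Ptgfr, the receptor for prostaglandin F2α, was variable. Over CD26− CAFs it ran from 0.792 to 11.4 CPM with a median of 3.12, and over CD26+ CAFs from 1.74 to 14.1 CPM with a median of 7.38. In NFs the values were 7.10, 8.40 and 11.2 CPM in CD26− and 2.70, 3.13 and 4.95 CPM in CD26+ cells. CD26+ cells were higher in 7 of 9 tumor-bearing mice and in 0 of 3 controls, and none of these differences was called. The log2 fold change was 0.96 ± 0.40 (SE, adjusted p = 0.0633) between CAF classes and -1.31 ± 0.71 (SE, adjusted p = 0.450) between NF classes, with a difference between both of 2.26 ± 0.83 (SE, adjusted p = 0.185). With mouse as a block the CAF difference was called (0.92, adjusted p = 0.0425), as it was without WB1P-Myc mouse 69 (1.11, adjusted p = 0.0469). Against NFs, Ptgfr was called in CD26− cells without WB1P-Myc mouse 67 (-1.39, adjusted p = 0.0364) and in CD26+ cells of the En1 lineage (1.61, adjusted p = 0.0449).

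Set against NFs, 4 of the 9 tested members were called in CD26− cells and 3 in CD26+ cells. Ptgs2 and Ptger2 were higher and Ptgis and Ptger3 lower in CD26− CAFs, beside 20.4% of all genes called higher and 21% lower. In CD26+ CAFs Hpgd and Ptgs2 were higher and Ptger3 lower, beside 20.1% and 21.1%. The members' median log2 fold changes were 0.19 and 0.85, beside 0.014 and -0.0025 over all genes. Both shares lie near those of the table as a whole, and these comparisons share the control mice with the NF comparison.

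**Figure D2:**
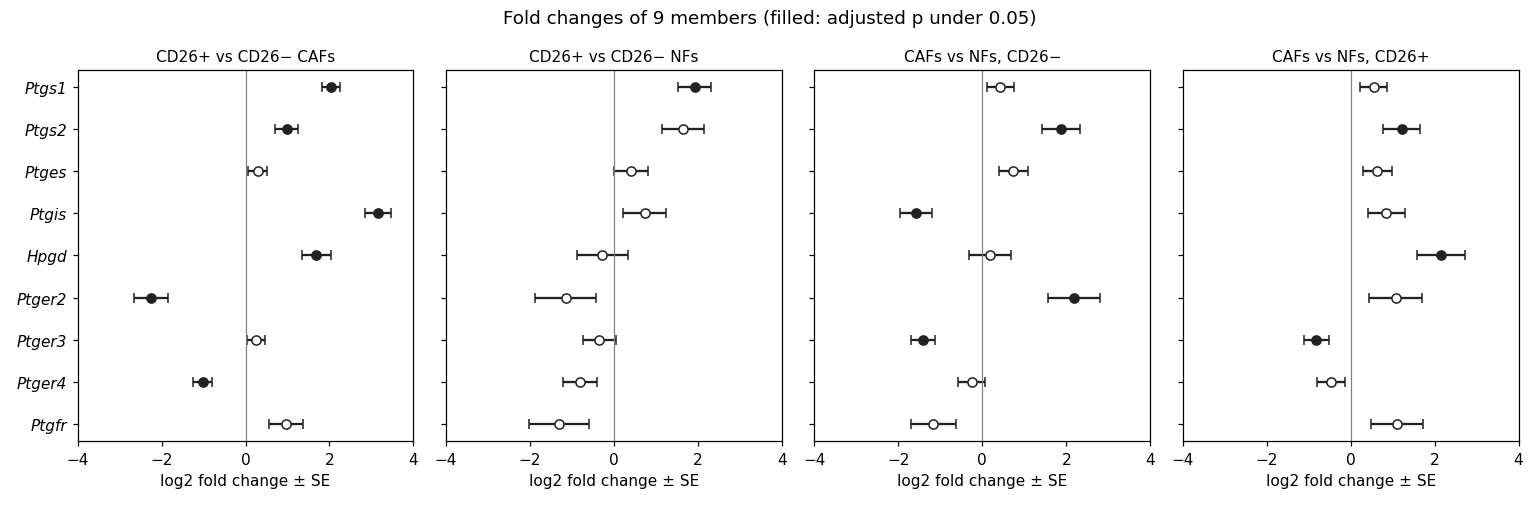
Log2 fold changes ± SE (horizontal axes) of the 9 tested members in the 4 main comparisons, with filled circles for adjusted p under 0.05. Ptgs1, Ptgs2, Ptgis and Hpgd lie to the right and Ptger2 and Ptger4 to the left between CAF classes, and Ptger3 lies to the left in both comparisons with NFs.

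WB1P and WB1P-Myc CAFs were compared to ask whether Myc in the tumor epithelium went with other levels in the stroma. In neither CD26 class was a member called by edgeR's quasi-likelihood test, beside 0.205% of all genes higher and 0.307% lower in CD26− cells and 0% and 0% in CD26+ cells. DESeq2 called 0 members in either class as well. At an unadjusted p under 0.05 there were 2 in CD26− cells, Ptgs2 and Ptgis, and 0 in CD26+ cells. Ptgs2 stood at 654 ± 204 against 1342 ± 473 CPM in WB1P-Myc and WB1P CD26− CAFs (log2 fold change -1.04 ± 0.39 (SE), adjusted p = 0.218), and at 1428 ± 598 against 2391 ± 1524 CPM in CD26+ CAFs (log2 fold change -0.74 ± 0.40 (SE), adjusted p = 1.00). Ptgis stood at 23.9 ± 12.2 against 11.8 ± 7.79 CPM in CD26− CAFs (log2 fold change 1.02 ± 0.41 (SE), adjusted p = 0.253). SEs of the 9 members ran from 0.30 to 0.60 on the log2 scale in these comparisons.

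Taken per model, 4 members were called between CD26 classes in WB1P (Ptgs1, Ptgis and Hpgd higher, Ptger4 lower), beside 26% of all genes. In WB1P-Myc 5 were called (Ptgs1, Ptgs2, Ptgis and Hpgd higher, Ptger2 lower), beside 20%, and 3 without WB1P-Myc mouse 21. Ptgis had 3.58 ± 0.45 (SE, adjusted p = 6.08e-06) in WB1P and 2.72 ± 0.42 (SE, adjusted p = 6.63e-05) in WB1P-Myc on the log2 scale. Ptger2 had -1.53 ± 0.58 (SE, adjusted p = 0.0549) and -2.97 ± 0.57 (SE, adjusted p = 0.000595), and Ptger4 -1.23 ± 0.35 (SE, adjusted p = 0.0113) and -0.82 ± 0.32 (SE, adjusted p = 0.0758). The test of the difference between both models called 0 members by edgeR and by DESeq2, with 0 at an unadjusted p under 0.05, beside 0% of all genes by edgeR.

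Against NFs, CD26− WB1P CAFs had 5 called members, namely Ptgs2 and Ptger2 higher and Ptgis, Ptger3 and Ptgfr lower, beside 35.4% of all genes. CD26− WB1P-Myc CAFs had 3, with Ptgs2 and Ptger2 higher and Ptger3 lower, beside 36.6%. In CD26+ cells WB1P had 3, with Ptgs2 and Hpgd higher and Ptger3 lower, beside 33.5%, and WB1P-Myc had 1, Hpgd, beside 34.7%. Single mice moved these counts. WB1P CD26− cells had 3 without control 82/83, control 44/46 or WB1P mouse 35, and WB1P-Myc CD26− cells had 5 without control 49/52. WB1P CD26+ cells had 1 without control 82/83, control 44/46 or WB1P mouse 93. Ptgfr in CD26− WB1P CAFs had -1.69 ± 0.62 (SE, adjusted p = 0.0374) on the log2 scale, and Hpgd in CD26+ WB1P-Myc CAFs 2.07 ± 0.59 (SE, adjusted p = 0.0101).

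The En1 lineage split each CD26 class of CAFs into cells with and without GFP. Over single libraries, Ptgs2 stood at 1034 ± 564 CPM in 8 libraries of CD26− cells with GFP and 928 ± 421 CPM in 9 without. These means pool unequal shares of both models, and the fitted log2 fold change of Ptgs2, which weights the models equally, was -0.15 ± 0.32 (SE, adjusted p = 1.00). Ptgis stood at 153 ± 57.1 CPM in 9 libraries of CD26+ cells with GFP and 134 ± 43.4 CPM in 6 without. Ptgs1 stood at 74.3 ± 16.7 CPM and 68.4 ± 14.4 CPM in the latter libraries, and at 17.1 ± 3.99 CPM and 18.7 ± 9.27 CPM in the CD26− ones. edgeR called 0 of 9 members for En1 among CD26− CAFs, beside 0% of the 15584 genes tested, and 0 of 9 among CD26+ CAFs, beside 0.0193%, with 0 at an unadjusted p under 0.05 in either. The largest of these log2 fold changes was that of Ptger2 in CD26− CAFs, at -0.67 ± 0.38 (SE, adjusted p = 1.00). In this fit single libraries were the units, and 7 mice gave both libraries of the CD26− comparison and 6 both of the CD26+ one, so the libraries are not all independent. With mouse as a block edgeR also called 0 of 9 members in either comparison, with 0 at an unadjusted p under 0.05. DESeq2 was not run for this split.

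The rest of the pathway was read from a list of 31 other prostanoid genes, phospholipases, transporters, reductases and receptors. Of these, 30 were found by name in the table, Fam213b being the exception, and 25 passed the filter. Between CAF classes 5 were called higher in CD26+ cells (Ptgr1, Zadh2, Ptgr2, Cbr1 and Pla2g6) and 2 lower (Ptgir and Ptger1), beside 19.1% and 19.9% of all genes. The median log2 fold change of the 25 was 0.18, beside 0.0081 over all genes tested. Between NF classes edgeR called 0 of 25, with 3 at an unadjusted p under 0.05, and DESeq2 called 1, the low Pla2g5. Ptgir, the receptor for the prostacyclin that Ptgis makes, ran opposite to Ptgis, at 12.8 ± 5.43 against 49.0 ± 19.3 CPM in CD26+ against CD26− CAFs (log2 fold change -1.91 ± 0.26 (SE), adjusted p = 3.31e-06), lower in 9 of 9 mice and with no overlap. Ptger1, the prostaglandin E2 receptor linked to calcium, was low and lower in CD26+ CAFs (1.18 ± 0.459 against 3.94 ± 1.67 CPM, log2 fold change -1.77 ± 0.28 (SE), adjusted p = 2.49e-05). The summed pericyte markers were also lower in CD26+ CAFs, at 156 to 394 CPM against 1883 to 9365 CPM. Their part in the Ptgir and Ptger1 levels was not tested. The reductases Ptgr1, Zadh2 and Ptgr2, which act after Hpgd in inactivation, had log2 fold changes of 0.63 ± 0.14 (SE, adjusted p = 0.00111), 0.56 ± 0.12 (SE, adjusted p = 0.000618) and 0.53 ± 0.089 (SE, adjusted p = 5.92e-05), each higher in CD26+ cells of 9 of 9 mice.

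Against NFs, 7 of the 25 were called higher and 5 lower in CD26− CAFs, beside 20.4% and 21% of all genes. In CD26+ CAFs 5 were higher and 4 lower, beside 20.1% and 21.1%. Abcc4, which exports prostaglandins, was lower in both classes, with -1.82 ± 0.17 (SE, adjusted p = 6.08e-08) and -1.54 ± 0.18 (SE, adjusted p = 1.73e-06) on the log2 scale. Slco2a1, which takes prostaglandins up, was lower in CD26+ CAFs (54.7 ± 16.4 against 179 ± 129.7 CPM, log2 fold change -1.71 ± 0.45 (SE), adjusted p = 0.00472), a call lost without control 82/83 (-0.98, adjusted p = 0.128). Pla2g4a, the cytosolic phospholipase that frees arachidonic acid, was higher in CD26− CAFs (59.2 ± 26.6 against 28.0 ± 5.54 CPM, log2 fold change 1.05 ± 0.28 (SE), adjusted p = 0.00494). Pla2g15, a lysosomal phospholipase, had 1.23 ± 0.22 (SE, adjusted p = 0.000126) in CD26− and 1.09 ± 0.22 (SE, adjusted p = 0.000556) in CD26+ cells. Ptgr1 had 0.71 ± 0.21 (SE, adjusted p = 0.0101) and 1.17 ± 0.22 (SE, adjusted p = 0.000342), the first lost without control 49/52 (0.68, adjusted p = 0.0544) or 44/46 (0.62, adjusted p = 0.0724).

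The leukotriene branch, which uses the same arachidonic acid, was low apart from Lta4h, the hydrolase of leukotriene A4 and the most abundant of its 10 genes in each group. Of the 10, 9 passed the filter. Lta4h stood at 83.7 ± 7.85 against 49.7 ± 4.73 CPM in CD26+ against CD26− CAFs (log2 fold change 0.76 ± 0.073 (SE), adjusted p = 3.84e-08) and at 83.7 ± 7.85 against 44.4 ± 3.69 CPM in CD26+ CAFs against CD26+ NFs (log2 fold change 0.92 ± 0.11 (SE), adjusted p = 3.28e-06). Between CAF classes Lta4h was the 1 gene called higher and 4 were lower (Alox5, Alox5ap, Cysltr1 and Cysltr2), each of these with a mean under 3 CPM in CD26− CAFs. Of all genes 19.1% were higher and 19.9% lower in that comparison. Between NF classes edgeR and DESeq2 called 0, with 2 at an unadjusted p under 0.05. In CD26− cells 1 (Cysltr2) was higher in CAFs than in NFs, and in CD26+ cells 2 were higher (Alox5ap and Lta4h) and 1 lower (Cysltr2). Alox5, the lipoxygenase that starts the branch, had a mean of 0.296 CPM in CD26− CAFs.

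Markers of the cell types that the sort should remove were low beside those of fibroblasts. The 7 macrophage and leukocyte markers summed to 11.3 to 158 CPM over the 25 sums, with Cd74, the invariant chain, the most abundant in both CAF classes and Adgre1 and Tyrobp under 1 CPM in CD26+ CAFs and both NF classes. Of the 7, 5 were lower in CD26+ than in CD26− CAFs, and against NFs 4 were higher in CD26− cells and 1 was higher and 1 lower in CD26+ cells. The 6 endothelial markers summed to 19.4 to 520.3 CPM, with Tek, an angiopoietin receptor, the most abundant in both CD26+ classes, and Cdh5, Emcn and Vwf under 1 CPM in CD26+ CAFs. Between CAF classes 2 endothelial markers were higher (Tek and Kdr) and 3 lower in CD26+ cells, and against NFs 1 was higher and 4 lower in CD26− cells and 4 were lower in CD26+ cells. The 6 epithelial markers summed to 0.364 to 168 CPM, with the keratin Krt8 the most abundant in both NF classes and both CAF classes (Krt18 in CD26+ cells of WB1P-Myc taken alone), and edgeR and DESeq2 called 0 of them in each of the 4 main comparisons, with 0 at an unadjusted p under 0.05. The part of these genes in the member results was not tested.

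The 6 mast cell markers summed to 1.54 to 130.0 CPM, the highest in CD26− cells of WB1P-Myc mouse 95 and the next 18.3 CPM. Hdc, which makes histamine, was the most abundant in CD26− CAFs and CD26− NFs (Kit in WB1P taken alone). In CD26− WB1P-Myc CAFs Hdc had a mean of 27.1 CPM, beside a mean sum of 32.9 CPM. Cma1 and Tpsb2 were under 1 CPM in each class, and Cpa3 and Mcpt4 in both CAF classes. Of the 6, 5 were lower in CD26+ than in CD26− CAFs. Between CAFs and NFs edgeR and DESeq2 called 0 of the 6 in either class, with 2 at an unadjusted p under 0.05 in CD26− cells and 0 in CD26+ cells. Of 4 mesothelial markers, 0.265 to 46.1 CPM in sum, Wt1, a zinc finger factor, was the most abundant. Msln, Upk3b and Lrrn4 had means under 1 CPM in each group. Against NFs, Wt1 and the low Msln were called higher in CD26− CAFs, and Wt1 in CD26+ CAFs. The 4 adipocyte markers summed to 0 to 11.0 CPM, with Plin1, a lipid droplet protein, the most abundant in both CAF classes (Adipoq in CD26+ cells of WB1P taken alone), and 3 of 4 were lower in CD26+ than in CD26− CAFs. Against NFs 2 of 4 (Lep and Cidec) were lower in CD26− CAFs and 1 (Lep) in CD26+ CAFs. Whether these cells contribute to the member results was not tested.

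The genes whose log2 CPM ran most like a member's over the 25 sums were looked up for the 7 members with a group mean of at least 10 CPM. For Ptgs1 they were Bmp6, a bone morphogenetic protein, and Duox1, an oxidase that makes hydrogen peroxide (Pearson's r 0.950 and 0.939). Ptgs2 ran with Anxa1, annexin A1, a regulator of phospholipase activity, and Adora2b, an adenosine receptor (0.895 and 0.868). Ptges ran with Nfkbia, the inhibitor of NF-κB, and Srgn, a proteoglycan of secretory granules (0.844 and 0.833). The sums share mice and differ in CD26 class, tumor and depth, so these coefficients describe a shared pattern of groups. Ptgis had A730035I17Rik at under 1 CPM and Wnt2, a secreted Wnt ligand (0.896 and 0.893). For Hpgd they were Dram1, a lysosomal protein of autophagy, and Il11ra1, the interleukin 11 receptor (0.859 and 0.851). Ptger3 had Mir99ahg, a host transcript of microRNAs, and Creg1 (0.913 and 0.896), and Ptger4 had Ptpre, a receptor-type tyrosine phosphatase, and Jsrp1 (0.852 and 0.851).

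Ptgs1, Ptgs2 and Hpgd were higher together in CD26+ CAFs, and their promoter windows are shown to set the steady and the inducible cyclooxygenase beside the inactivating enzyme. The windows are 300 bases around the RefSeq transcription start in GRCm38.p6, found for 9 of the 10 members, at chr2:36230176-36230475 for Ptgs1, chr1:150099781-150100080 for Ptgs2 and chr8:56294302-56294601 for Hpgd, all on the + strand. Capitals mark matches on either strand to 5 motifs: the TATA box TATAAA, the cyclic AMP response element core TGACGT, the E-box CACGTG, the C/EBP palindrome TTGCGCAA and the GC box GGGCGG.
Ptgs1: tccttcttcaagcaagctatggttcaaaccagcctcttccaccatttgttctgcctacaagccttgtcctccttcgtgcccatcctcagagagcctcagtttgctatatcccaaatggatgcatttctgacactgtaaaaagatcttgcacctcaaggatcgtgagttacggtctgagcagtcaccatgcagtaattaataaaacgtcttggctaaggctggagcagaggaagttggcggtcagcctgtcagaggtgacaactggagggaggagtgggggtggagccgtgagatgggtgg
Ptgs2: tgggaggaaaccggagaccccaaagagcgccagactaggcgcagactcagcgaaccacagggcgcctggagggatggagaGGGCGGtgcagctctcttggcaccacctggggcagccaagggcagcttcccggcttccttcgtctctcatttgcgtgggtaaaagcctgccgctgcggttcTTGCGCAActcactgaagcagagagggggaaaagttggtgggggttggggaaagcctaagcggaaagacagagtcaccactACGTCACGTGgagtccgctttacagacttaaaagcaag
Hpgd: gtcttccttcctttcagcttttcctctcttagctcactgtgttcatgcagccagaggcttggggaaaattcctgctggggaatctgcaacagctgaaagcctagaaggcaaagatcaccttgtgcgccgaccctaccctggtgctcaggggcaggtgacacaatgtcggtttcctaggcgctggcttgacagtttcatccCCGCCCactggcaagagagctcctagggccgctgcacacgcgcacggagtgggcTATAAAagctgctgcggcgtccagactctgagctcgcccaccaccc

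The Ptgs2 window held 4 of the motifs once each: TGACGT on the reverse strand at bases 263 to 268, CACGTG at bases 267 to 272 and overlapping it, TTGCGCAA at bases 182 to 189 and GGGCGG at bases 81 to 86. Hpgd held TATAAA at bases 255 to 260 and GGGCGG on the reverse strand at bases 201 to 206, and Ptgs1 held none of the 5. Of all 32851 promoter windows of this length, 13.6% held TATAAA, 7.51% TGACGT, 7.15% CACGTG, 0.183% TTGCGCAA and 35.7% GGGCGG. A match describes letters of the reference sequence, and binding was not measured.

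Positions follow GENCODE M21 on GRCm38. The cyclooxygenases are Ptgs1 (ENSMUSG00000047250, chr2:36230426-36252272, + strand) and Ptgs2 (ENSMUSG00000032487, chr1:150100031-150108227, + strand). The synthases are Ptges (ENSMUSG00000050737, chr2:30889471-30929863, − strand), Ptgis (ENSMUSG00000017969, chr2:167191805-167240604, − strand) and Ptgds (ENSMUSG00000015090, chr2:25466709-25470046, − strand). The inactivating enzyme is Hpgd (ENSMUSG00000031613, chr8:56294585-56321043, + strand). The receptors for prostaglandin E2 are Ptger2 (ENSMUSG00000037759, chr14:44988195-45003820, + strand), Ptger3 (ENSMUSG00000040016, chr3:157566892-157645888, + strand) and Ptger4 (ENSMUSG00000039942, chr15:5206661-5244187, − strand). The receptor for prostaglandin F2α is Ptgfr (ENSMUSG00000028036, chr3:151796502-151837630, − strand). On the opposite strand Ptgs1 overlaps Gm43621, Ptgis 1110018N20Rik and Gm14291, Ptger2 Gm17173 and Gm49364, Ptger4 Gm15937 and Ttc33, and Ptgfr Gm43618. On the same strand Ptges overlaps Gm13400 and Hpgd Gm45540. The libraries were made with a stranded kit, but whether the counting used strand is not given in the sources used here, so for the 5 members with overlaps on the opposite strand alone the counts are uncertain to that extent. For Ptges and Hpgd the overlap does not depend on strand.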

How the data were processed

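The libraries were made with the TruSeq stranded mRNA kit. The deposited table held raw read counts per gene, one column per library, made by the authors after alignment with HISAT2 2.2.1 to GRCm38; the counting tool, its strand setting and its annotation are not given in the sources used here. Of its 55487 lines 1 named no gene and held 0 counts. Counts were summed per mouse and CD26 class, which gave 25 sums of 5790599 to 29498005 counts, and mice were the replicates except in the En1 comparisons, which were fitted on single libraries, several per mouse. Genes with low counts were removed with filterByExpr, which kept 16601 genes. Library sizes were scaled by TMM and tested with the quasi-likelihood test of edgeR 4.0.16 with Benjamini-Hochberg adjustment over all genes, called at an adjusted p under 0.05 at any fold. All 6 groups shared 1 fit, and CAFs without a named model weight WB1P and WB1P-Myc equally. SE is the log2 fold change divided by the square root of F. DESeq2 1.42.0, limma 3.58.1, R 4.3.3, Python 3.11.15, numpy 2.4.6, pandas 2.3.3, scipy 1.17.1 and matplotlib 3.10.9 were used.

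Both CD26 classes of a mouse share the animal. As a check, the deviations of log2 CPM from the group mean were correlated within each of 12 pairs across genes, which are not independent replicates, with a Pearson's r of 0.2371 to 0.6681 (median 0.4437), and mouse as a block was an alternative. No copies were found among 63 pairs of libraries of the same tissue, CD26 class and GFP state. None were found among 19 pairs of the same mouse and CD26 class either. The alternatives were size factors from DESeq2, its Wald test, no filter on low counts, mouse as a block, leaving out the mice marked 8x8, only En1-lineage libraries, only libraries outside it, only the groups compared, the paper's limit on the absolute log2 fold change of 2, total counts as library size, and leaving out each of 13 mice.

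The members and the gene lists were chosen with earlier results of these data known. The lists hold other prostanoid genes, the leukotriene branch, immediate early and stress genes, and markers of fibroblasts, pericytes, endothelial cells, macrophages and leukocytes, mast cells, epithelium, mesothelium and adipocytes. All members are named. Other names came from up to 4 called genes per list and comparison, with the largest absolute log2 fold change. These had at least 10 CPM in the higher group. Names also came from the most abundant gene of each cell type list and from genes behind a count of 5 or fewer. For each member with a group mean of at least 10 CPM, the 2 genes with the highest correlation of log2 CPM (prior count 2) are named. Not every gene that these rules select is named, and some stand as counts alone. Dpp4 was the check of the sort. Any further gene was picked with its values in view. The floor of 3 counts covers counting error only. Promoter windows were read from RefSeq on GRCm38.p6, where Ptgis was not matched. No set test was run, and protein was not measured.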

Additional observations from a re-analysis of the deposited data

Results flagged for a closer look

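Within the groups of 4 or 5 mice, 36 combinations of gene and group were searched for a mouse far from the others of its group, and 4 were found. Chance flags about 1 in 20 groups, which is 1.8 of 36. Ptgs1 in CD26− WB1P CAFs was highest in mouse 35, at 20.4 CPM, with the next mouse at 15.7 CPM. Ptges in CD26+ WB1P CAFs was lowest in mouse 12, at 108 CPM, with the next at 139 CPM. That sum of mouse 12 held 1 library and had the lowest depth of all sums, 5790599 counts. Ptgis in CD26− WB1P CAFs was highest in mouse 12, at 25.6 CPM, with the next at 9.56 CPM. Ptger4 in CD26+ WB1P CAFs was highest in mouse 93, at 25.4 CPM, with the next at 11.4 CPM. All 4 were WB1P mice, and the cause was not tested.

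The CD26 difference of Ptgis differed between CAFs and NFs by 2.42 on the log2 scale (adjusted p = 0.0352), in a test of the difference itself. The call was lost in 8 of 21 alternatives, with adjusted p from 0.00160 to 0.257. In the same test 5 of 8 pericyte markers were called lower by edgeR and 6 were called by DESeq2. In CD26− cells Ptgis was lower in CAFs than in NFs, and in CD26+ cells it was not called. The part of pericyte markers and the cause were not tested.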

How the results depend on the processing

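Between CAF classes the 6 called members (Ptgs1, Ptgs2, Ptgis, Hpgd, Ptger2 and Ptger4) were called, in the same direction, in all 21 alternatives with a test. Between CAFs and NFs this held over 20 alternatives for Ptgs2, Ptger2 and Ptger3 in CD26− cells and for Hpgd in CD26+ cells. Ptgs1 between NF classes and Ptgis in the difference of differences lost their call in some. Of the values of single genes and levels under alternatives, 1814 kept direction and side of the threshold, 37 lost their call, 14 gained one and 32 changed sign. Of the counts of called members 264 stayed within 1.5 times and 40 did not.

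The paper's limit on the fold lowered the counts to 3 between CAF classes, 0 between NF classes, and 1 in either class of CAFs against NFs. Per model that limit gave 2 for CD26 in WB1P and 2 in WB1P-Myc. Against NFs it gave 2 in CD26− WB1P, 1 in CD26− WB1P-Myc and 1 in CD26+ WB1P. Between NF classes DESeq2 called 2 members, and mouse as a block, which pairs both classes of a mouse, called 3. With En1-lineage libraries alone 5 members were called between CAFs and NFs in CD26+ cells. In WB1P-Myc that setting gave 3 for CD26, and against NFs 1 in CD26− and 4 in CD26+ cells. Outside the En1 lineage 0 were called for the difference of differences and 2 in CD26+ WB1P-Myc CAFs against NFs, where the fit on the groups compared also gave 2. Without the mice marked 8x8, 3 were called for CD26 in WB1P-Myc. The cause of each change was not tested.

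Leaving out single mice gave 0 to 2 called members between NF classes, 1 to 4 between CAFs and NFs in CD26+ cells, and 0 to 1 in the difference of differences. Per model it gave 3 to 6 for CD26 in WB1P-Myc. Against NFs it gave 3 to 5 in CD26− WB1P, 2 to 5 in CD26− WB1P-Myc and 1 to 3 in CD26+ WB1P cells. A control left out leaves 2 controls.

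Each value that changed sign was one not called. Over mice left out in turn, the log2 fold change between NF classes ran from -0.54 to 0.011 for Ptger3 and from -0.65 to 0.19 for Hpgd. For Hpgd it ran from -0.074 to 0.65 between CAFs and NFs in CD26− cells. The difference of differences ran from -0.45 to 0.076 for Ptges and from -0.55 to 0.071 for Ptger4. In WB1P-Myc against WB1P CD26− cells it ran from -0.020 to 0.56 for Ptgs1, -0.25 to 0.16 for Ptges and -0.21 to 0.57 for Hpgd. In CD26+ cells it ran from -0.041 to 0.42 for Ptgis, -0.34 to 0.35 for Ptger4, -0.26 to 0.54 for Ptgfr and -0.34 to 0.022 for Hpgd. Without the mice marked 8x8, Hpgd was -0.019 in CD26− cells and 0.021 in CD26+ cells, where Ptger4 was 0.21 and Ptgfr -0.074. Outside the En1 lineage Ptgs1 was -0.024 and Ptgfr -0.43 in CD26+ cells, and in En1-lineage libraries alone Ptger4 was 0.011. The cause was not tested. Depth limits Ptgds, which could not be tested, and Ptger2, with 1 to 108 counts per sum.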
